A study of Mus musculus with 110 samples.

Results

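The comparison described here sets a mouse pro-B cell line carrying a tag on CTCF, but not the ubiquitin ligase adaptor OsTIR1, against its parental line, with no auxin on either side. Its members are the untreated full junction libraries of those lines: 8 libraries of the tag line and 8 of the parental line, 16 of the 98 samples with full junction data and of the 110 samples of the series. Each line has 4 numbered replicates, and each replicate has an a and a b library, whose shares were averaged, so that the replicate is the unit and n = 4 on each side. The rule that chose them used the sample titles alone.

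All groups were v-Abl transformed pro-B lines (B cell precursors kept growing by a viral kinase). All were RAG2 deficient and carried the Emu-Bcl2 transgene, in which the immunoglobulin heavy chain enhancer drives the survival gene Bcl2. The tag line had CTCF-mAID-GFP tagging in addition, as its genotype label says. Parental replicates 1 and 2 were labelled Emu-Bcl2, RAG2 deficient, and parental replicates 3 and 4 had WT before the same words. RAG2 was supplied by nucleofection, and the cells were held for 4 days in 3 uM STI-571, an Abl kinase inhibitor that arrests the cells in G1 and starts V(D)J recombination. The labels do not say how many clones each line represents or whether replicates were separate cultures, so p-values measure the spread between these samples, which may be technical. The junctions carry no expression, so the tag itself and the amount of CTCF protein could not be checked in them.

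V(D)J recombination assembles the heavy chain variable exon in an ordered way, D to JH first and VH to DJH second. The RAG endonuclease, bound at a recombination centre over the JH segments, cuts at recombination signal sequences made of a heptamer, a spacer and a nonamer. Chromatin is drawn past the recombination centre by cohesin, and CTCF bound to its sites can impede that movement, which is why VH segments beside a CTCF site close to the D array are used most in such lines. mAID is a shortened auxin-inducible degron that recruits OsTIR1 only in the presence of auxin (indole-3-acetic acid, IAA), and the tag-only line lacks that partner. The comparison therefore asks whether the tag alone, without its ligase and without its inducer, goes with a different set of joints.

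The assay was LAM-HTGTS, in which a biotinylated primer in JH4, the bait, is extended linearly into whatever was joined to it (the prey), so that 1 read gives 1 junction. A D prey is a DJH joint and a VH prey is a complete VDJH joint. The 16 libraries held 1052196 junctions. Tag replicates held between 107550 and 167608, and parental replicates 17607, 14866, 231023 and 225136. Parental replicates 1 and 2, the shallow ones, share a sequencing run with all 4 tag replicates, as the read names give it. Parental replicates 3 and 4 came from another run. Tag replicate 1 stood apart from tag replicates 2 to 4 in most measures of VH use, in its a and its b library alike, and the results below are given with and without it where it matters. It was singled out after its values had been seen. Leaving it out narrows the spread of the tag line in those measures, so p-values without it are a description. The a and b reads differ in the bait by 6 bases and share no read name, and no junction was marked as a duplicate.

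The segments that carried the results are shown first, because their signals and flanks are what RAG reads. D segments are written as the junction reads give them, on the strand opposite to the coding strand, from the end that faces JH to the upstream signal, with the heptamer and the nonamer in capitals. Ighd1-1 (DFL16.1) is the D most used here, Ighd2-3 is the D called lower in the tag line, and Ighd4-1 (DQ52) lies nearest to the JH segments.
Ighd1-1: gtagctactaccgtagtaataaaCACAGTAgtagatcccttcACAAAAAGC
Ighd2-3: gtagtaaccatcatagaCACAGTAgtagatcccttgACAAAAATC
Ighd4-1: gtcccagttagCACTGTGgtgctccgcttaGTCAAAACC

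Of the VH segments, 4 are shown by the 75 bases that follow the recombining end in mm9, on the minus strand of chromosome 12. Capitals mark the heptamer, the nonamer and, where present, a CTCF-like motif. Ighv5-2 (VH81X) and Ighv2-2 lie near the D array and carry the motif, Ighv5-12 lies farther and carries it, and Ighv1-67 lies in the distal part without it. Their mm9 positions are chr12:114816640-114816714, chr12:114826403-114826477, chr12:114940260-114940334 and chr12:116842076-116842150.
Ighv5-2: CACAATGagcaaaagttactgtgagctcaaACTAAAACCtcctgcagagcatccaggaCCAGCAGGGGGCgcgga
Ighv2-2: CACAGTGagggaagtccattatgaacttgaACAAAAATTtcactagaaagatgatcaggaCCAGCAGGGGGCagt
Ighv5-12: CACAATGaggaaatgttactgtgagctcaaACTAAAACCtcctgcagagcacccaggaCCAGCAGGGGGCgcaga
Ighv1-67: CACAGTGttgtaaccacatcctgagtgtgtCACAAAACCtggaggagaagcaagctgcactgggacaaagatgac

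Junction positions below are those of the hybrid genome to which the files were aligned, AJ851868 joined to mm9, and distances are counted along it from the most D-proximal VH with junctions, at chromosome 12 position 114830805. The D and VH segments were found as 176 positions where junctions pile up (27 D and 149 VH), of which 52 took an mm9 gene name by sequence. A segment without a name of its own is given by its position and the mm9 gene most like it.

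DJH joints made up most junctions in both lines. Ighd1-1, the D segment at the VH-proximal end of the main array, took 59.5%, 71.3%, 66.8% and 66.3% of all junctions in tag replicates 1 to 4 and 61.5%, 60.7%, 60.3% and 60.2% in parental replicates 1 to 4. Tag replicates 2 to 4 lay above all parental replicates and tag replicate 1 lay below all of them. The means were 66.0% ± 4.9 (SD, n = 4) and 60.7% ± 0.57 (SD, n = 4), a difference of 5.29 percentage points (exact permutation p = 0.143, two-sided). The D segments between Ighd1-1 and Ighd4-1 took 29.3%, 18.2%, 21.1% and 21.6% in the tag line and 26.3%, 25.3%, 26.3% and 26.7% in the parental line, with the same replicate on the other side (exact permutation p = 0.143). Ighd4-1 took 4.97% ± 0.22 (SD, n = 4) against 5.65% ± 0.94 (SD, n = 4). Here the parental replicates of the tag run were higher, 5.87% and 6.89%, than those of the other run, 4.95% and 4.88%, so that the tag line was below the first pair and 0.0514 percentage points above the mean of the second.

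Of 11 regions into which all junctions were sorted, 0 passed a Benjamini-Hochberg adjusted exact permutation p of 0.05 (0% called), and 1 passed it unadjusted. That region, the JH cluster, was also the only one whose replicates did not overlap (9.09% of the regions). Prey in the JH cluster, the stretch between the bait and Ighd4-1, took 1.02%, 0.876%, 0.884% and 0.905% in the tag line against 0.761%, 0.782%, 0.721% and 0.573% in the parental line. All tag replicates were above all parental replicates (exact permutation p = 0.0286, the smallest that 4 against 4 allows; adjusted p = 0.314). Against the parental pair of the same run alone the difference was 0.149 percentage points, and against the other pair 0.274. By replicate, 92.9% to 96.6% of the prey in this region were in the orientation opposite to deletion. Which kinds of joint they are was not tested.

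**Figure D1:**
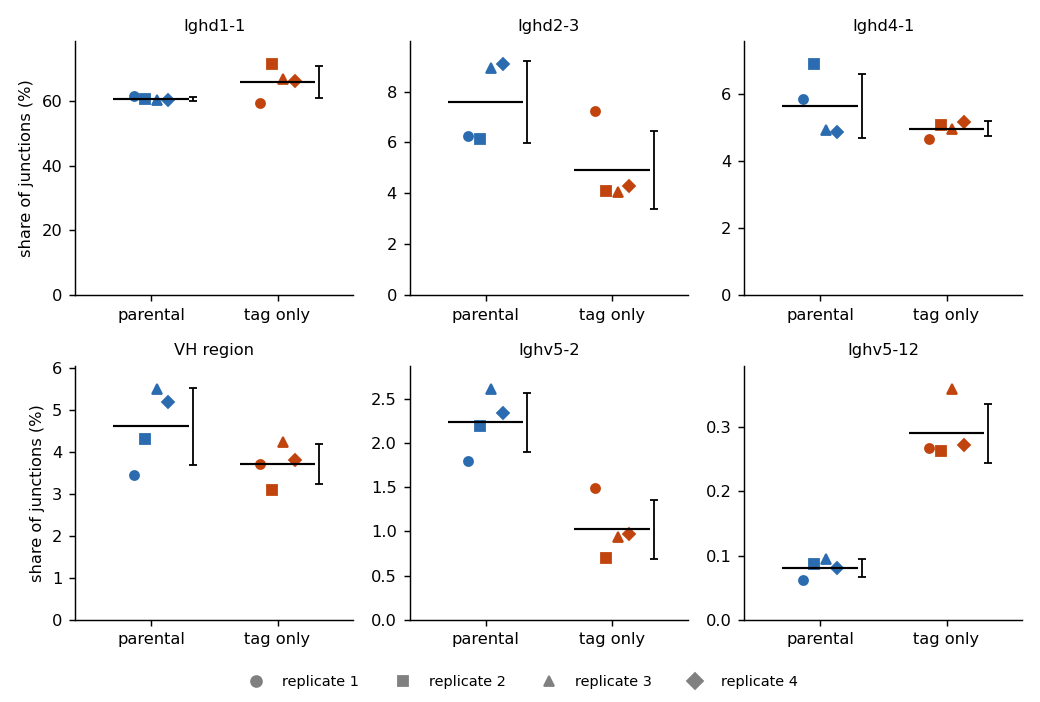
Share of all junctions (%, linear axes from 0) at 3 D segments, in the VH region and at 2 VH segments, for each parental (blue) and tag-only (orange) replicate, with the marker giving the replicate number; horizontal bars are means and error bars are SD over 4 replicates. At Ighv5-2 the tag replicates lie between 0.702% and 1.49%, all below the parental replicates, and at Ighv5-12 they lie between 0.263% and 0.359%, all above them.

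Of 18 D segments that held at least 10 junctions per replicate on average, 1 was higher and 1 was lower in the tag line at an adjusted p under 0.05 in limma's test with voom weights on the tallies of all segments. Over all 50 segments tested in that fit, 25 passed (50% called): 20 were higher (40%) and 5 were lower (10%). The median of the log2 changes was 1.15 over all segments and -0.08 over the D segments. Ighd2-3, near Ighd1-1 in the array, took 7.23%, 4.10%, 4.04% and 4.30% in the tag line and 6.25%, 6.13%, 8.92% and 9.07% in the parental line. Tag replicate 1 was above parental replicates 1 and 2, so the groups overlapped. Its log2 change was -0.80 (SE 0.19; limma adjusted p = 0.00538), but with parental replicates 1 and 2 alone the log2 change was -0.40 and the limma adjusted p was 0.67. The higher D, at 114713225 and most like Ighd5-7, averaged 22.0 junctions per replicate (log2 change 1.16, SE 0.41, limma adjusted p = 0.0329) and was picked out after its values were seen. With parental replicates 1 and 2 alone its log2 change was 0.08 (limma adjusted p = 0.96), and the call was lost in 6 of 8 fits that left out 1 replicate: each parental one, tag replicate 1 or tag replicate 4 (limma adjusted p = 0.0541 to 0.177).

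Among the other D segments named by their share, the Ighd2-like D at 114690286 took 5.66% ± 1.44 (SD, n = 4) against 6.09% ± 0.39 (SD, n = 4) and did not pass the test. Ighd2-6 took 2.78% ± 0.51 against 2.99% ± 0.18 (SD, n = 4 each) and did not pass either. The Ighd1-1-like D at 114719358, which shares its upstream signal with Ighd1-1 but has a shorter coding part, took 0.524% ± 0.202 against 0.675% ± 0.068 (SD, n = 4 each; log2 change -0.40, limma adjusted p = 0.193). Without tag replicate 1, the log2 change of Ighd1-1 was 0.17 (limma adjusted p = 0.00266), that of the D at 114719358 was -0.61 (limma adjusted p = 0.00436) and that of the D at 114690286 was -0.26 (limma adjusted p = 0.0213). This fit is a description, since that replicate was singled out after its values had been seen.

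The share of junctions that reached the VH region, that is the share of complete VDJH joints, did not differ beyond the spread between replicates. It was 3.72%, 3.09%, 4.25% and 3.81% in the tag line and 3.46%, 4.31%, 5.49% and 5.18% in the parental line. The parental values fell into 2 levels by run, and the tag values lay around the lower one. The means were 3.72% ± 0.48 (SD, n = 4) and 4.61% ± 0.92 (SD, n = 4), a difference of -0.894 percentage points (exact permutation p = 0.171). Against parental replicates 1 and 2, of the same run, the difference was -0.166 (exact permutation p = 0.733), and against replicates 3 and 4 it was -1.62 (exact permutation p = 0.0667, the smallest that 4 against 2 allows). In the shallowest libraries the Wilson 95% interval of the share was 3.20% to 3.74% for parental replicate 1 and 3.99% to 4.64% for parental replicate 2. Such intervals cover counting error only, since reads amplified by PCR are not independent molecules. Without parental replicate 1 the difference was -1.28 (exact permutation p = 0.0286).

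What differed was where within the VH region the junctions fell. The first 500 kb of the region, which holds the Ighv5 and Ighv2 families next to the D array, took 93.7%, 69.8%, 72.1% and 75.6% of VH-region junctions in tag replicates 1 to 4. In parental replicates 1 to 4 it took 94.8%, 95.5%, 96.6% and 96.2%. All tag replicates were below all parental replicates, but tag replicate 1 lay next to the lowest parental one and far from the other tag replicates. In a libraries alone tag replicate 1, at 93.3%, was above parental replicate 1, at 92.7%, so the groups overlapped there. The means were 77.8% ± 10.9 (SD, n = 4) and 95.8% ± 0.82 (SD, n = 4), a difference of -18.0 percentage points (exact permutation p = 0.0286, Benjamini-Hochberg adjusted p = 0.0357).

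The remainder lay farther out. The window from 1200 to 2000 kb, in the distal Ighv1 (J558) part of the locus, took 9.76% ± 5.01 of VH-region junctions in the tag line against 1.44% ± 0.22 in the parental line (SD, n = 4 each; exact permutation p = 0.0286, adjusted p = 0.0357). Beyond 2000 kb the shares were 7.39% ± 3.78 and 1.35% ± 0.24 (SD, n = 4 each; exact permutation p = 0.0286, adjusted p = 0.0357). From 500 to 1200 kb they were 5.06% ± 2.41 and 1.44% ± 0.72 (SD, n = 4 each), and the replicates overlapped (exact permutation p = 0.0571, adjusted p = 0.0571). The median distance of a VH junction was 15.3, 52.6, 52.6 and 38.3 kb in the tag line and 5.58, 5.58, 5.59 and 10.5 kb in the parental line (exact permutation p = 0.0286, adjusted p = 0.0357). The 10.5 kb is the mean of 15.3 kb in the a library and 5.59 kb in the b library. That a library thus lay level with tag replicate 1. So 4 of these 5 measures were called (80%), and the same 4 of 5 did not overlap (80%). The 3 windows other than the first rise where the first falls, since they are shares of the same total.

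With only the parental replicates of the tag run, the difference in the first 500 kb was -17.3 percentage points, and with only those of the other run it was -18.6 (exact permutation p = 0.133 for each). With 4 against 2, and tag replicate 1 so near to the parental line, no window reached the threshold. Leaving out any 1 parental replicate also left 0 of 5 measures called, with a difference of -18.3 to -17.7 in the first 500 kb (adjusted exact permutation p = 0.0571 to 0.0714). Without tag replicate 1 the difference was -23.3.

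On the scale of all junctions, VH joints beyond 500 kb took 0.234%, 0.916%, 1.18% and 0.929% in the tag line and 0.187%, 0.195%, 0.188% and 0.195% in the parental line. The parental replicates lay close together at every depth and in both runs, tag replicate 1 just above them and the other tag replicates well above. The means were 0.814% ± 0.405 and 0.191% ± 0.004 (SD, n = 4 each), a 4.26-fold difference (exact permutation p = 0.0286, adjusted p = 0.0714). The first 500 kb took 2.90% ± 0.55 and 4.42% ± 0.92 of all junctions (SD, n = 4 each), a ratio of 0.657 (exact permutation p = 0.0571, adjusted p = 0.0714). On this scale 0 of 5 measures passed the adjusted exact permutation test (0% called), while 2 of 5 did not overlap (40%) and passed it unadjusted.

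Nearer bounds gave the same order. VH segments within 30 kb took 64.4%, 38.7%, 41.1% and 44.8% of VH-segment junctions in the tag line and 79.1%, 81.4%, 84.3% and 83.9% in the parental line (exact permutation p = 0.0286). Within 60 kb the means were 61.4% ± 12.7 and 92.0% ± 1.5, within 200 kb 73.2% ± 11.4 and 94.8% ± 1.0, and within 1500 kb 89.1% ± 5.7 and 98.1% ± 0.36 (SD, n = 4 each; exact permutation p = 0.0286 at each bound). These bounds were added after the windows had been seen, and each includes the one before it.

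**Figure D2:**
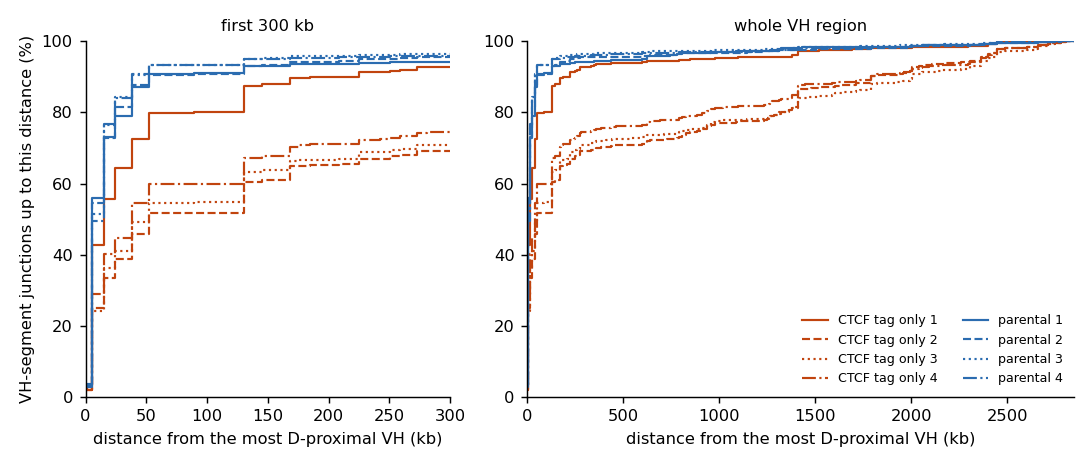
Cumulative share (%) of VH-segment junctions by distance from the most D-proximal VH (kb), in its near part (left) and the whole VH region (right), with 1 line per replicate, blue for parental and orange for tag only. The 4 parental lines reach 79.1% to 84.3% by 30 kb, tag replicate 1 reaches 64.4% and tag replicates 2 to 4 reach 38.7% to 44.8%.

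The 4 VH segments nearest to the D array were all lower in the tag line in the fit of all segments, and the replicates did not overlap at 2 of them. Ighv5-2, the VH used most in both lines, took 1.49%, 0.702%, 0.931% and 0.968% of all junctions in the tag line and 1.80%, 2.19%, 2.61% and 2.33% in the parental line. No tag replicate reached the lowest parental one. The log2 change was -1.24 (SE 0.21; limma adjusted p = 0.00111). The segment at 114846142, 99.7% identical to Ighv2-2 and 15.3 kb out, took 0.471%, 0.259%, 0.507% and 0.423% against 0.596%, 0.774%, 1.36% and 1.39%. These did not overlap either, and the parental replicates of the other run were higher than those of the tag run (log2 change -1.47, SE 0.28, limma adjusted p = 0.00189). The Ighv5-4-like segment at 114855361 had a log2 change of -0.83 (limma adjusted p = 0.0225), but tag replicate 1, at 0.323%, was above parental replicate 1, at 0.204%, and within VH it did not pass (log2 change -0.41, limma adjusted p = 0.101). The segment at 114830805 had -1.03 (limma adjusted p = 0.0108), and there tag replicate 4, at 0.120%, was above parental replicates 1 and 2, at 0.114% and 0.115%.

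From 30 kb outward the direction turned. Ighv2-3, at 38.3 kb, took 0.295%, 0.220%, 0.344% and 0.363% in the tag line and 0.273%, 0.265%, 0.332% and 0.346% in the parental line, which overlapped throughout (log2 change -0.09, SE 0.22, limma adjusted p = 0.724). Ighv5-6, at 52.6 kb, took 0.266%, 0.172%, 0.216% and 0.201% against 0.125%, 0.128%, 0.153% and 0.127%, with all tag replicates above (log2 change 0.61, SE 0.22, limma adjusted p = 0.0374). This call was lost without tag replicate 1 (limma adjusted p = 0.0558) and in most other alternatives. Ighv5-12, at 130.7 kb, took 0.267%, 0.263%, 0.359% and 0.271% in the tag line and 0.0623%, 0.0867%, 0.0954% and 0.0808% in the parental line. Here tag replicate 1 sat with the other tag replicates, well above the parental line (log2 change 1.75, SE 0.23, limma adjusted p = 0.000206).

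Further out, the Ighv5-9-like segment at 114998635 took 0.0632%, 0.121%, 0.109% and 0.0965% against 0.0171%, 0.0342%, 0.0355% and 0.0262% (log2 change 1.67, limma adjusted p = 0.00281). The Ighv5-9-like segment at 115055836 took 0.0474%, 0.0467%, 0.0822% and 0.0469% against 0.00565%, 0.0138%, 0.0117% and 0.00799% (log2 change 2.44, limma adjusted p = 0.00153). Neither pair of groups overlapped. The parental tallies were 3, 5, 82 and 59 junctions at 114998635 and 1, 2, 27 and 18 at 115055836. The parental values of replicates 1 and 2 thus rest on few junctions at both. At 1409.9 kb, the segment at 116240676, whose nearest mm9 gene, Ighv1-81, is only 82.3% identical, took 0.0437%, 0.134%, 0.101% and 0.0936% in the tag line. In the parental line it took 0.0152% in replicate 3 and 0.0195% in replicate 4, and it had 0 junctions in replicates 1 and 2, which allows up to 0.0170% and 0.0202% there (log2 change 2.67, SE 0.63, limma adjusted p = 0.00538). Ighv1-67, at 2401.6 kb, took 0.0176%, 0.0222%, 0.0337% and 0.0362% against 0.00565%, 0.00656%, 0.00522% and 0.00622% (log2 change 2.15, limma adjusted p = 0.00538). Its parental tallies were 1, 1, 12 and 14 junctions, so the parental values of replicates 1 and 2 rest on 1 junction each. These tallies averaged under the minimum for testing, and Ighv1-67 passed it through the tag line, with 19, 30, 52 and 61. It was also named because it was called, so its p-value is a description.

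By distance, 4 of 4 tested VH segments within 30 kb were lower (log2 -1.47 to -0.83). Between 30 and 500 kb 8 of 9 were higher and 1, Ighv2-3, did not pass. Beyond 500 kb 11 of 19 were higher and 8 did not pass, with estimates from 0.89 to 3.05. The filter shaped these counts: 19 of the 32 tested VH segments averaged under 10 junctions in the parental line and passed through the tag line, 15 of them beyond 500 kb, while 0 passed through the parental line alone. The counts beyond 30 kb are therefore a description, and the windows, which have no such filter, carry the comparison. Of all 149 VH segments, 139 had a junction in a tag replicate and 116 in a parental one. Junctions in tag replicates alone were seen at 25 segments and in parental replicates alone at 2.

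With the tallies scaled to the VH total in place of the library total, 23 of 32 VH segments passed limma's test (71.9%), 20 higher (62.5%) and 3 lower (9.38%), with a median log2 change of 2.18. Scaling by the median of ratios assumes that most tested segments did not change, and it moved the median of all 50 segments from 1.15 to 0.90 with 14 higher and 6 lower calls. Within VH it moved the median from 2.18 to 0.71, with 2 higher and 4 lower calls, and turned the sign of Ighv2-3 (log2 change -1.03) and Ighv5-6 (-0.40). Without tag replicate 1 limma called 36 segments, without parental replicate 3 it called 12 and without parental replicate 4 it called 9. With the parental replicates of the tag run alone, limma called 0 of 54 segments, and 4 had an unadjusted p under 0.05. The log2 changes there were -1.02 for Ighv5-2 and 1.93 for Ighv5-12 (limma adjusted p = 0.256 for each). With the parental replicates of the other run alone, limma called 15 of 64 segments higher and 5 lower.

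**Figure D3:**
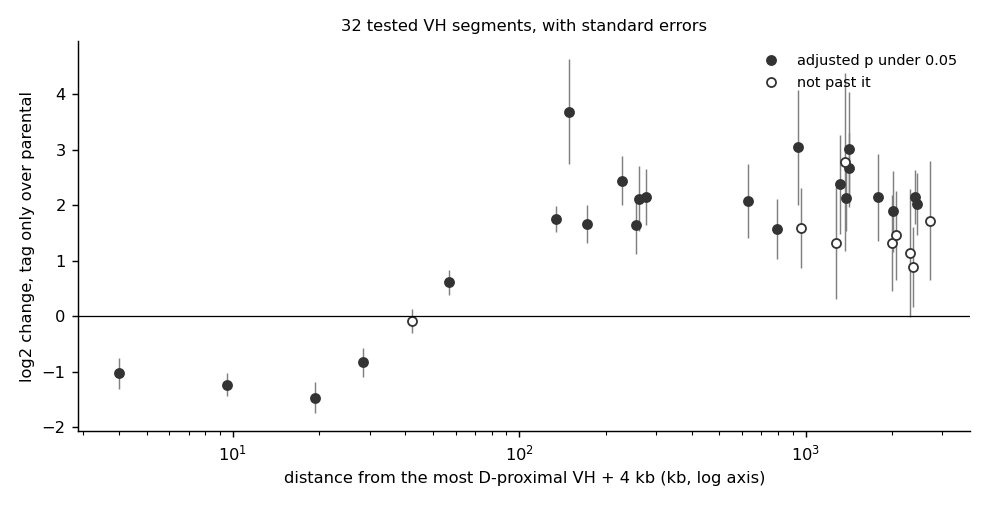
Log2 change of each of the 32 tested VH segments, tag only over parental, against distance from the most D-proximal VH (kb plus 4, log axis); bars are standard errors from limma, and filled points passed an adjusted p of 0.05. The 4 segments within 30 kb lie between -1.47 and -0.83, Ighv2-3 at 38.3 kb lies at -0.09, and the segments beyond 100 kb lie between 0.89 and 3.69.

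VH joints were also spread over more segments in the tag line. Drawing each replicate down to 604 VH-segment junctions, the number in parental replicate 1, the expected number of distinct VH segments was 40.5, 79.7, 79.1 and 75.4 in the tag line. It was 40, 37.2, 28.1 and 28.8 in the parental line (exact permutation p = 0.0286). Tag replicate 1 was above the highest parental replicate by less than 1 segment, and tag replicates 2 to 4 were far above. With identical junctions counted once, at 591 junctions, the means were 69.5 ± 18.8 and 33.8 ± 5.8 segments (SD, n = 4 each; exact permutation p = 0.0286). Ighv5-2 led in every replicate, with 40.8%, 23.0%, 22.2% and 25.8% of VH-segment junctions in the tag line and 52.5%, 51.7%, 48.2% and 45.8% in the parental line (exact permutation p = 0.0286).

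VH segments were also sorted by the family of the closest mm9 gene, at any identity. Ighv1, the large distal family, took 3.70%, 17.4%, 16.6% and 13.7% of VH-segment junctions in the tag line and 1.76%, 2.06%, 1.63% and 1.98% in the parental line. Every tag replicate was above every parental one (exact permutation p = 0.0286, adjusted p = 0.143). Ighv2 took 22.2% ± 2.5 against 29.6% ± 4.1 (SD, n = 4 each), also without overlap (exact permutation p = 0.0286, adjusted p = 0.143). Ighv5, to which Ighv5-2 belongs, took 71.5%, 53.0%, 50.1% and 52.9% against 69.4%, 70.1%, 65.5% and 62.3%, with tag replicate 1 above the whole parental line (exact permutation p = 0.143). Ighv14 took 0.653% ± 0.293 against 0.118% ± 0.148 (SD, n = 4 each; exact permutation p = 0.0571). Over the 5 VH and 5 D families, 0 of 10 passed the adjusted exact permutation test (0% called), and 2 of 10 did not overlap (20%) and passed it unadjusted. Without tag replicate 1, 6 of 10 passed it: Ighv5 at -14.8 percentage points, Ighv1 at 14.0, the other VH at 7.66, Ighv14 at 0.667, Ighd1 at 6.98 and Ighd2 at -6.20 (adjusted exact permutation p = 0.0476 for each). That replicate was singled out after its values in these measures had been seen, so this count is a description.

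The VH segments could also be sorted by the CTCF-like motif shown above, CCANNAGNNGGC, searched on both strands in the 200 mm9 bases that follow the recombining end. Only the best-matching VH segment of each mm9 gene was taken, at an identity of at least 95%. Of the 71 VH segments so chosen, 17 held it (23.9%). It was found beside 7 of 7 Ighv5, 5 of 7 Ighv2 and 0 of 34 Ighv1 segments, so that the motif follows family and place. Of 7 tested segments with the motif, 3 were lower and 3 were higher, and the median log2 change was -0.09. Of 13 tested segments without it, 8 were higher (61.5%) and 0 were lower. Further tested matches of the same genes were left out of these counts. Those at 114976040, 114998635, 115055836 and 115081350, whose closest genes have the motif, were all higher (log2 change 3.69, 1.67, 2.44 and 1.64). That at 117135978, whose closest gene lacks it, did not pass (log2 change 1.14). The even split with the motif therefore holds for 1 segment per gene only. Over all 32 tested VH segments 19 were higher (59.4%) and 4 were lower (12.5%), so the share of higher calls without the motif was near that of all. The 13 segments without it all lie beyond 500 kb, and 10 of them averaged under 10 junctions in the parental line and passed the minimum through the tag line, against 1 of 7 with the motif. A segment that passes in that way had to be higher in the tag line. Ighv5-2 and Ighv5-12 hold the same 12 motif bases at the same place, the 59th base, and had log2 changes of -1.24 and 1.75 at 5.57 and 130.7 kb. A match to these letters is not a bound site, and distance and motif cannot be told apart in these groups beyond such pairs.

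Most VH junctions also held D sequence between JH4 and VH, which shows which DJH joint had been the substrate. A D family was assigned where at least 8 bases matched, in 60.9% to 70.1% of VH-segment junctions of tag replicates and 60.01% to 64.4% of parental ones. Ighd1-family sequence was found in 34.6%, 64.5%, 58.5% and 55.6% of the assigned junctions in the tag line and 30.7%, 32.7%, 33.7% and 31.5% in the parental line. All tag replicates were above all parental ones, replicate 1 by less than 1 percentage point (exact permutation p = 0.0286, adjusted p = 0.143). Ighd2-family sequence was found in 60.2%, 32.1%, 37.3% and 40.2% against 63.3%, 60.8%, 58.9% and 61.1% (exact permutation p = 0.0571). Ighd4 was found in 2.91% ± 0.46 against 4.28% ± 0.53 (SD, n = 4 each), without overlap (exact permutation p = 0.0286, adjusted p = 0.143). With VH split at 30 kb, Ighd4 took 4.69% against 4.90% within it (exact permutation p = 0.743). Beyond it the means were 1.59% and 1.75% (exact permutation p = 0.8).

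In both lines the D in the joint went with the distance of the VH. Joints to VH beyond 30 kb held Ighd1 in 48.2%, 74.6%, 69.4% and 67.2% of assigned junctions in the tag line and 56.1%, 53.2%, 50.5% and 50.5% in the parental line (exact permutation p = 0.143). Joints to the first 30 kb held it in 26.0%, 46.8%, 39.8% and 39.8% against 23.0%, 27.8%, 30.3% and 27.5% (exact permutation p = 0.114). The share beyond 30 kb was higher than the share within 30 kb in all 8 replicates. Tag replicate 1 was among the parental replicates within 30 kb and below all of them beyond it. Over the 15 measures of this kind 0 passed the adjusted exact permutation test (0% called), and 3 did not overlap (20%) and passed it unadjusted. This comparison was added after the VH windows had been seen. The 23 coding bases of Ighd1-1 against 17 of most Ighd2 members make it easier to match. The bases between JH4 and VH averaged 14.4 to 16.2 in the tag line, 14.3 and 15.2 in parental replicates 1 and 2 and 13.0 and 12.7 in parental replicates 3 and 4, and the part of this length in the assignment was not tested.

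**Figure D4:**
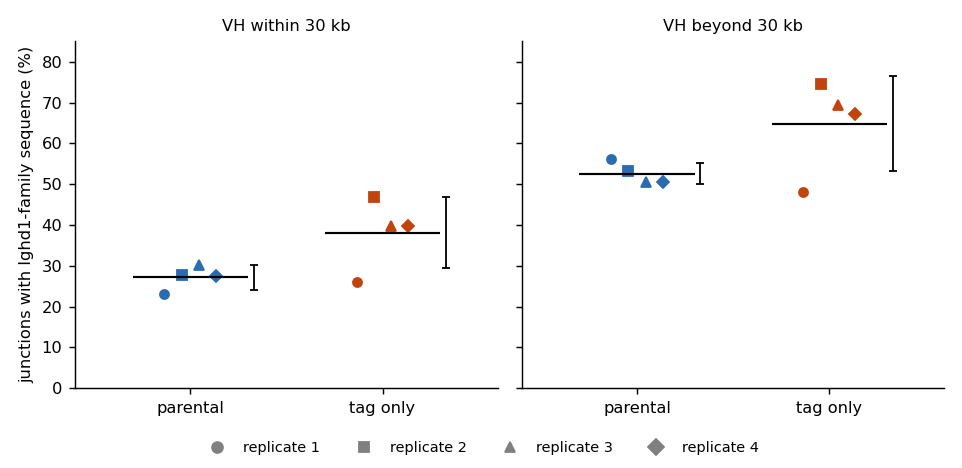
Share (%) of VH junctions with an assigned D that held Ighd1-family sequence, for VH within 30 kb (left) and beyond 30 kb (right), by replicate; horizontal bars are means and error bars are SD over 4 replicates. Tag replicates 2 to 4 lie at 39.8% to 46.8% on the left and 67.2% to 74.6% on the right, above the parental replicates, and tag replicate 1 lies at 26.0% and 48.2%.

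The structure of the joints did not differ between the lines beyond the spread between replicates. Of 16 measures of joint structure 0 passed the exact permutation test, adjusted or unadjusted (0% called), and 0 had groups that did not overlap (0%). The spread in the parental line followed the run. Bases inserted between bait and prey (any N additions by terminal transferase, and in VH joints the D) were present in 76.4% and 77.5% of D and VH junctions in parental replicates 1 and 2, in 57.0% and 53.9% in replicates 3 and 4, and in 73.2%, 74.2%, 69.0% and 79.3% in tag replicates 1 to 4. Junctions that repeat an identical one made up 7.95% and 7.27% of junctions in parental replicates 1 and 2, 45.7% and 53.6% in replicates 3 and 4, and 22.9% to 33.9% in the tag line. Tag replicates had inserted bases at about the level of the parental replicates of their own run, and repeats between the levels of the parental pairs. The part of depth and run in these values was not tested.

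Trimming of the ends was close as well. The JH4 bait end was intact in 17.3% ± 0.7 of junctions in the tag line and 17.7% ± 0.7 in the parental line. Ighd1-1 lost 3.88 ± 0.27 bases on average against 3.69 ± 0.46, and Ighv5-2 lost 3.11 ± 0.40 against 2.61 ± 0.53 (SD, n = 4 each). Joints in the orientation opposite to deletion, which for these segments would be inversions, made up 0.0942% ± 0.0370 of junctions in the D array and 1.09% ± 0.22 in the VH region of the tag line. In the parental line they made up 0.0994% ± 0.0194 and 1.22% ± 0.37 (SD, n = 4 each; exact permutation p = 0.886 and 0.486).

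**Figure D5:**
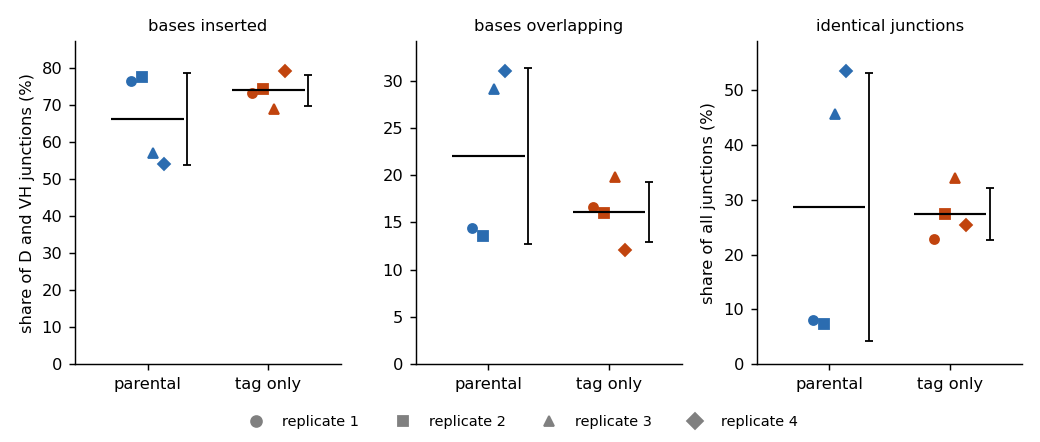
Share (%) of D and VH junctions with inserted bases (left) or overlapping bases (middle), and of all junctions that repeat another exactly (right), by replicate; horizontal bars are means and error bars are SD over 4 replicates. Parental replicates 1 and 2, sequenced with the tag line, lie at 76.4% and 77.5% on the left, and parental replicates 3 and 4, from another run, at 57.0% and 53.9%.

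The same lines were also treated with IAA at 500 uM, for 6 h before and then throughout STI-571, which gives a second comparison with no sample in common. All tag replicates with IAA came from the run of the untreated tag replicates, and no parental replicate with IAA did, so line and run cannot be told apart here. There too the tag line lacks OsTIR1. The first 500 kb took 91.0%, 64.0%, 68.9% and 69.1% of VH-region junctions in the tag line and 93.2%, 94.8%, 96.2% and 95.8% in the parental line. The groups did not overlap, and tag replicate 1 was again the nearest to the parental line (exact permutation p = 0.0286, adjusted p = 0.0357). Of the 5 window measures 4 were called (80%) and 4 did not overlap (80%). The VH share was 3.43% ± 0.51 against 4.43% ± 0.60 (SD, n = 4 each; exact permutation p = 0.0571).

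In limma's test on the IAA libraries 17 of 57 segments passed (29.8%), 13 higher (22.8%) and 4 lower (7.02%). Scaled to the VH total, 26 of 37 passed (70.3%), 24 higher (64.9%) and 2 lower (5.41%). Ighv5-2 had a log2 change of -1.47 (limma adjusted p = 0.000683) and Ighv5-12 of 1.35 (limma adjusted p = 0.000683). Ighd2-3 had -0.61 (limma adjusted p = 0.0372). All 25 segments called without IAA were tested with it and had the same sign there, and 15 of them passed. Of those 25 calls 20 were higher, and 43 of all 57 segments tested with IAA had a positive change. Of the 32 VH segments tested without IAA, 19 passed the minimum through the tag line, so this agreement is a description. Same-numbered replicates with and without IAA may come from the same culture, which the labels do not state.

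Against 2 further untreated lines the tag line was compared in the same way, so these comparisons share the tag libraries with the one above. The line with an OsTIR1 knock-in and no tag held 94.2%, 95.8%, 99.4% and 99.8% of VH-region junctions in the first 500 kb, all above the tag line (exact permutation p = 0.0286, adjusted p = 0.0357). Replicates 1 and 2 of that line came from one run and replicates 3 and 4 from another, neither of them the tag run, so line and run cannot be told apart, and its values were lower in the first of those runs. Of the 5 window measures 4 were called (80%) and 4 did not overlap (80%). The VH share of that line was 4.93% ± 1.06 (SD, n = 4), above the tag line by 1.21 percentage points (exact permutation p = 0.114).

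The CTCF degron line, labelled CTCFdegron, was likewise without IAA. All its replicates came from a run that holds no tag replicate, so line and run cannot be told apart in any value of this comparison. Its 6 replicates held 57.8% to 87.4% of VH-region junctions in the first 500 kb, which overlapped the tag line. The means were 77.8% ± 10.9 (SD, n = 4) in the tag-only line and 71.1% ± 10.9 (SD, n = 6) in the degron line, a difference of 6.72 percentage points (exact permutation p = 0.405). Of the 5 window measures 0 passed the exact permutation test, adjusted or not (0% called), and 0 did not overlap (0%), which does not show that the lines are alike. Ighd4-1 was lower in the tag-only line, 4.97% ± 0.22 (SD, n = 4) against 8.01% ± 1.63 (SD, n = 6; exact permutation p = 0.00952, adjusted p = 0.105), while 0 of 11 regions passed after adjustment (0% called) and 1 did not overlap (9.09%). Of the 10 families 2 passed (20%) and did not overlap: Ighd3 at 0.501% against 1.23% and Ighd4 at 5.31% against 8.58% (adjusted exact permutation p = 0.0476 for each). Of the 16 measures of joint structure 2 passed (12.5%) and did not overlap. The Ighv5-2 end was intact in 31.2% ± 0.9 against 34.9% ± 1.4, and repeats of an identical junction made up 27.4% ± 4.7 against 12.6% ± 2.6 (SD, n = 4 and 6; adjusted exact permutation p = 0.0381 for each).

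The small regions held few junctions. The interval between the D array and VH that holds the IGCR1 insulator took 17 to 32 junctions per tag replicate, and 0, 1, 51 and 47 in parental replicates 1 to 4. Igk, on another chromosome, took 0.131% ± 0.042 against 0.149% ± 0.021, and all other chromosomes took 0.155% ± 0.056 against 0.147% ± 0.037 (SD, n = 4 each). The 5 kb upstream of Ighd1-1 took 1.26% ± 0.31 against 1.50% ± 0.11 (SD, n = 4 each; exact permutation p = 0.257).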

How the data were processed

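The deposited tables hold 1 line per junction read (unit other: a read, with prey position, orientation, bait and prey ends), made by the authors by aligning to the AJ851868/mm9 hybrid genome, per the labels; Bowtie2 and mm9 are named in the submitters' processing notes, with versions not given in the sources used here. Junctions were counted here per region and per segment (within 100 bp of a segment end). Segments were found as pile-ups of junctions and named with blastn 2.17.0 against mm9 (at least 97% identity and 1 percentage point above any other segment). The window bounds were 500, 1200 and 2000 kb.

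Shares per replicate (mean of the a and b library) were compared by two-sided exact permutation tests, with Benjamini-Hochberg adjustment within each family of measures. Segment tallies with a mean of at least 10 junctions per replicate were tested with limma 3.58.1 (voom, R 4.3.3), since a row of these files is a read and not a count. On simulated tallies of the 50 segments, limma recovered 79.7% of 2-fold and 100.0% of 4-fold changes and called 1.6% of unchanged segments. The simulation gave every segment the same fixed spread between replicates and no difference between runs. These rates therefore need not hold for the real replicates. Named segments were D with a mean share of at least 0.5%, the 10 VH with the highest mean share, the most D-proximal VH seen in every replicate, and at most 10 further called segments with the largest change whose replicates do not overlap. Of these the text gives those that the results turn on. The members and lists were chosen with earlier results of these data known. Alternatives were counting identical junctions once, a or b libraries alone, each parental pair, leaving out each replicate, the replicate number as a block, other scalings, other minimums, other windows and thinning. No column of per-sample values was left unused.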

Additional observations from a re-analysis of the deposited data

Results flagged for a closer look

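Of 140 groups of 4 replicates examined, 10 had a replicate separated from the other 3 by more than Dixon's 95% critical value for 4 samples, 7 in the tag line and 3 in the parental line. Chance separates about 1 in 20 groups, and the measures are not independent of each other.

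Tag replicate 1 was the separated replicate in 4 of them. Its Ighv5 share of VH-segment junctions was 71.5% against 50.1% to 53.0% in the other tag replicates. Its Ighd2-3 share of all junctions was 7.23% against 4.04% to 4.30%. Its share of the D segments outside the 4 main families was 0.233% against 0.150% to 0.161%, and its share of D-array junctions in the minus orientation was 0.150% against 0.0735% to 0.0775%.

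Tag replicate 3 was separated in 3. Its Ighv5-12 share was 0.359% against 0.263% to 0.271%, its share at the segment at 115055836 was 0.0822% against 0.0467% to 0.0474%, and its share on other chromosomes was 0.238% against 0.121% to 0.134%.

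In the parental line, the median VH distance of replicate 4 was 10.5 kb against 5.58 to 5.59 kb in the others. It is the mean of 15.3 kb in its a library and 5.59 kb in its b library. The minus-orientation share in the VH region of replicate 1 was 0.662% against 1.36% to 1.44%, and the Ighv5-6 share of replicate 3 was 0.153% against 0.125% to 0.128%.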

How the results depend on the processing

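Directions of the VH windows, of the 4 nearest VH segments and of the called segments chosen by the naming rule were kept under all alternatives in which they were tested, apart from Ighv5-6 within VH. What changed was mostly the number past a threshold. The VH share difference ran from -1.28 to -0.598 percentage points with 1 replicate left out. The window count, 4 of 5, ran from 0 to 5 with 1 replicate left out, and was 0 with either parental pair alone and 0 with windows as shares of all junctions. The family count ran from 0 to 6 with 1 replicate left out. The segment count, 25 of 50, ran from 9 to 36 with 1 replicate left out, and was 15 with identical junctions counted once, 11 in b libraries, 0 with parental replicates 1 and 2 alone, 9 at a minimum mean of 50 and 5 when thinned to the shallowest total. The count within VH, 23 of 32, ran from 19 to 33 with 1 replicate left out, and was 12 in b libraries, 0 with parental replicates 1 and 2 alone, 6 with median-of-ratios scaling, 43 at a minimum mean of 5, 7 at 50 and 38 with no minimum. Fewer samples are compared in the parental-pair settings, and fewer segments are tested after thinning and at a minimum mean of 50. More segments are tested at a minimum mean of 5 (84 in all and 61 within VH) and with no minimum (168 and 141). Both parental pairs compare the same number of samples, yet replicates 3 and 4 alone gave 15 higher and 5 lower calls of 64 segments. Within VH they gave 28 higher and 2 lower of 44. The segment calls therefore depend on the parental replicates of the other run, and the part of run and depth was not tested. The cause of the other changes was not tested. Depth limits the distal segments most: parental replicates 1 and 2 hold 609 and 640 VH junctions.

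Same-numbered replicates did not deviate together (correlations of -0.22, -0.16, -0.39 and -0.20), and no sample correlated best with its own number, so the numbers were not treated as pairs. With the replicate number as a block, 33 segments were called (27 higher and 6 lower) and 32 within VH (28 higher and 4 lower), Ighv2-3 turned to 0.0175, the exact sign-flip p of the VH share was 0.25 and 0 windows, regions, families and joint measures were called, since 4 pairs cannot give a p under 0.125.

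Signs that turned, none of them past a threshold beforehand except Ighv5-6 within VH, were as follows. In a libraries they were the D-array minus orientation (0.0148), Igk (0.0196), other chromosomes (-0.0189), the D at 114687612 (0.0760) and Ighv2-3 (0.0367), and in b libraries chromosome 12 elsewhere (0.00303). With identical junctions counted once they were the intact Ighd4-1 end (0.682), bases removed from Ighd4-1 (-0.0273), the IGCR1 interval (-0.000735), other chromosomes (-0.021) and the D at 114700407 (-0.0571), 114705399 (-0.0733) and 114710077 (-0.0197). After thinning they were the D at 114705399 (-0.101) and 114710077 (-0.0146) and Ighv2-3 (0.199). Limma-trend turned the D at 114705399 (-0.0275). Median-of-ratios scaling turned the D at 114700407 (-0.0168) and 114705399 (-0.0259) and, within VH, Ighv2-3 (-1.03) and Ighv5-6 (-0.40).

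With parental replicates 1 and 2 alone, 13 joint measures turned: intact ends of Ighd1-1 (1.08) and of the bait (0.0541), bases removed from Ighd1-1 (-0.201), Ighd4-1 (-0.165) and the bait (-0.0103), identical junctions (19.8), direct joins (0.872), inserted bases in number (-0.0913) and share (-2.97), overlapping bases in number (0.0537) and share (2.10), and minus orientation in the D array (0.00931) and VH region (0.0547). So did chromosome 12 elsewhere (0.0297), the D at 114705399 (-0.29) and 114710077 (-0.11), and Ighv2-3 (0.16). With replicates 3 and 4 alone Ighd3 (0.0117), the IGCR1 interval (-0.00594), Ighd4-1 (0.0514 as a share, 0.0165 on the log2 scale) and the D at 114687612 (0.0487) turned. With 1 replicate left out, these crossed 0: identical junctions (-8.31 to 7.14), minus orientation in the D array (-0.0236 to 0.00174), the IGCR1 interval (-0.00108 to 0.0063), Igk (-0.0297 to 0.000238), chromosome 12 elsewhere (-0.0192 to 0.00901), other chromosomes (-0.0201 to 0.0228), the D at 114687612 (-0.194 to 0.00355), 114695747 (-0.155 to 0.0388) and 114705399 (-0.0579 to 0.222), Ighd2-6 (-0.18 to 0.0040) and Ighv2-3 (-0.176 to 0.0520).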
